A study of Mus musculus with 12 samples.

Results

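The let-7 family was followed in colon and blood small RNA libraries of mice with dextran sulfate sodium (DSS) colitis. Its members were taken as the let-7 5p arms together with let-7j and miR-98-5p, by their names in the miRNA count table. This gave 10 of the 1978 miRNAs listed there, and all 10 passed the filter on low counts in both tissues, where 542 miRNAs (colon) and 484 miRNAs (blood) were tested. let-7 was among the earliest microRNAs discovered, as a regulator of developmental timing in worms, and its family is abundant in most differentiated mammalian tissues. A mature let-7 guides the Argonaute complex to messenger RNAs that pair with its seed, the bases 2 to 8 from its 5′ end, and lowers their output. Known targets include Lin28, Hmga2, Ras and Myc transcripts, and LIN28 proteins in turn block the maturation of let-7 precursors.

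The mice were male C57BL/6 animals obtained at 8 weeks of age, and each gave 1 colon library and 1 blood library. Mice 1, 7 and 9 drank water with 1.5% DSS, a polymer toxic to the colon epithelium, during 7 days and were sacrificed on day 8. Control mice 2, 4 and 8 were given no DSS. The mice that were sequenced had been selected by disease activity index, and the model is a chemically induced, acute colitis. The library titles give the mouse numbers but no treatment. The grouping of these numbers follows the figures of the study, whereas the disease state field of the deposited labels gives colitis for mice 1, 2 and 4 and control for mice 7, 8 and 9. The source and tissue fields also name opposite tissues for each library. Erythroid miRNAs made up 0.283% to 0.501% of the counts in the libraries taken as colon and 76.3% to 83.9% in those taken as blood, and summed gut epithelium markers were at 40009 to 153212 CPM against 1160 to 1738 CPM. CPM is the count scaled to a common library size (counts per 1e+06) with TMM factors. Colon libraries held 15060553 to 20106226 counts and blood libraries 21127134 to 32944792, of which the miR-486 entries alone held 74.7% to 83.0%. The miR-486a-5p and miR-486b-5p entries had nearly equal counts, with 1.00 to 1.04 of the latter per count of the former in blood, and counted once they leave blood totals of 12906680 to 19939945.

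The mature sequences show why the family is treated as 1 unit and where its members can be confused. They are given as deposited and are identical to RefSeq, with the seed in capitals.
mmu-let-7a-5p: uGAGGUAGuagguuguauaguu
mmu-let-7b-5p: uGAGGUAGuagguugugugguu
mmu-let-7c-5p: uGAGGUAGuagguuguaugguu
mmu-let-7d-5p: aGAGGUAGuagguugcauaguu
mmu-let-7e-5p: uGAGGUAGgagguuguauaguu
mmu-let-7f-5p: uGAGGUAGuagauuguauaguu
mmu-let-7g-5p: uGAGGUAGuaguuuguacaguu
mmu-let-7i-5p: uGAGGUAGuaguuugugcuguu
mmu-let-7j: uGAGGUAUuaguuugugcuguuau
mmu-mir-98-5p: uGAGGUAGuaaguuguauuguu
The seed GAGGUAG was shared by 9 of the 10 members, and let-7j carried GAGGUAU. Among the 45 pairs of members, 5 differed at 1 base and 10 at 2 bases. The single differences, counted from the 5′ end with the base of the named member first, were A19G from let-7a-5p to let-7c-5p, U9G from let-7a-5p to let-7e-5p, G12A from let-7a-5p to let-7f-5p, G17A from let-7b-5p to let-7c-5p and G8U from let-7i-5p to let-7j. let-7a, let-7b, let-7c, let-7e and let-7f thus form a chain of 1-base neighbours, and let-7i and let-7j a pair, so a sequencing error or a tolerated mismatch can move a read between entries. let-7d-5p, let-7g-5p and miR-98-5p had no neighbour at 1 base. Outside the family, only let-7k and miR-1961 carried the same seed in the table. let-7k stayed at 14.5 to 30.1 CPM in colon and 2.99 to 10.6 CPM in blood, and miR-1961 was under the filter in both.

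The members come from scattered loci, some of which are shared (GRCm38.p6). Mirlet7a-1 (chr13:48538179-48538272), Mirlet7f-1 (chr13:48537829-48537917) and Mirlet7d (chr13:48536012-48536114) lie on the minus strand in exons of the long non-coding RNA 6720427I07Rik. Mirlet7c-2 (chr15:85706603-85706697) and Mirlet7b (chr15:85707319-85707403) lie on the plus strand in an exon of Lncppara. Mirlet7f-2 (chrX:151912346-151912428) and Mir98 (chrX:151913214-151913321) share an intron of Huwe1. Mirlet7c-1 (chr16:77599657-77599750) lies in an intron of Mir99ahg and Mirlet7e (chr17:17830352-17830444) in an intron of Spaca6, both beside miR-99 and miR-125 genes. Mirlet7a-2 (chr9:41536716-41536811) lies on the plus strand in an intron of 3110039I08Rik. Mirlet7g (chr9:106178840-106178927) is in an intron of Wdr82, Mirlet7i (chr10:122985640-122985724) is in an exon of D630033A02Rik and Mir7j (chr3:140028249-140028370) overlaps no other annotated gene. Mature let-7a, let-7c and let-7f therefore have more than 1 source, and their counts do not separate the loci.

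The family was a major part of the colon small RNA. Its summed counts were 18.8% to 21.2% of the total in the DSS colons and 20.8% to 23.3% in the control colons. In blood they were 3.73% to 4.87% of the total in DSS mice and 4.69% to 9.32% in controls. With the miR-486 5p entries counted once these shares were 6.10% to 7.75% and 8.01% to 14.8%, which no longer overlapped. With the erythroid miRNAs taken out of the blood totals, the family held 18.8% to 21.1% in the 3 DSS mice and 27.0% to 39.4% in the 3 control mice, without overlap. An exact permutation test of 3 mice against 3 cannot give a two-sided p under 0.1.

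Each tissue had its own order of members. In the colon, let-7c-5p was the most abundant at 40875 to 79870 CPM and ranked 2 among all miRNAs, above let-7f-5p and let-7a-5p in 6 of 6 libraries. The next levels were those of let-7b-5p and let-7i-5p, and neither let-7a-5p and let-7b-5p nor let-7b-5p and let-7i-5p kept one order, which held in 5 of 6 libraries for each pair. let-7g-5p, let-7d-5p, let-7e-5p, let-7j and miR-98-5p followed in this order in 6 of 6 libraries, down to 626 to 848 CPM for miR-98-5p. In blood, let-7i-5p came before all other members at 14696 to 44934 CPM and ranked 3 among all miRNAs. It was followed by let-7d-5p at 5244 to 12098 CPM, which exceeded let-7a-5p in 5 of 6 libraries. The levels of let-7a-5p and let-7b-5p crossed, with let-7a-5p the higher in 2 of 6 blood libraries, and so did miR-98-5p and let-7e-5p at the bottom, with 3 of 6. Levels of different sequences were compared within a library, and how well each sequence is captured was not measured.

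**Figure D1:**
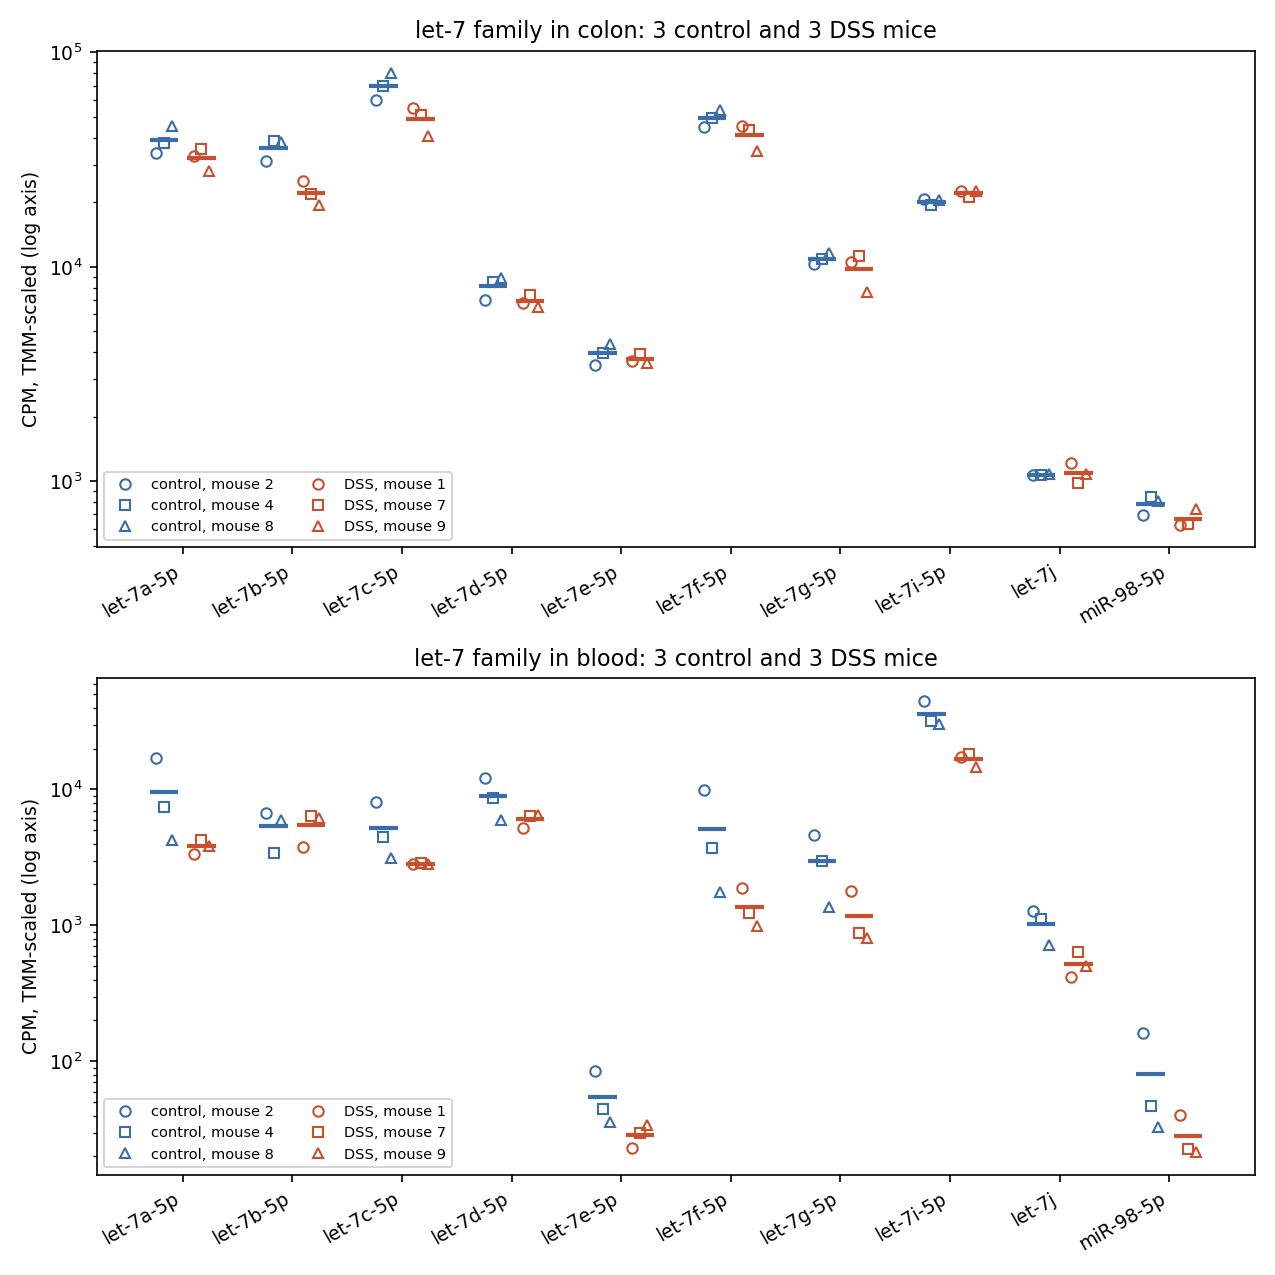
Level of each let-7 member in each mouse, in CPM after TMM scaling on a log axis, for colon (upper panel) and blood (lower panel), with blue symbols for the 3 control mice, red symbols for the 3 DSS mice and horizontal bars for group means. In colon the let-7b-5p symbols of the DSS mice (19425 to 25057 CPM) lie below all those of the controls (31251 to 38543 CPM), and in blood the control mouse 2 is the highest mouse for each of the 10 members.

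The first comparison asked which members differed in the inflamed colon. let-7b-5p fell and was the only member called significantly differentially expressed (SDE), which required a fold change over 1.5 together with an adjusted p no higher than 0.05. That is 1 of 10 members, beside 10.1% of the 542 miRNAs tested (4.24% for lower alone). The level of let-7b-5p was 25057, 21970 and 19425 CPM in DSS mice 1, 7 and 9 and 31251, 38543 and 38107 CPM in control mice 2, 4 and 8. All DSS colons were below all control colons. Its means were 22151 ± 2820 and 35967 ± 4090 CPM (SD, n = 3 each). This was a log2 fold change of -0.70 (SE 0.17) with adjusted p = 0.0491 (quasi-likelihood test of edgeR, Benjamini-Hochberg). This call was close to its threshold. It was lost without mouse 2, 4, 7, 8 or 9 (adjusted p 0.0775 to 0.158) and held without mouse 1, and the log2 fold change stayed between -0.82 and -0.61. It was also lost with RLE factors (adjusted p = 0.0522) and in a fit over all 12 libraries (0.245), the largest adjusted p of the settings with this grouping, while DESeq2's Wald test also called 1 member, beside 6.34% of its miRNAs for lower.

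let-7c-5p, the member encoded beside let-7b on chromosome 15 and also on chromosome 16, was the next lowest. Its level was 55097, 51287 and 40875 CPM in DSS mice 1, 7 and 9 and 59742, 69792 and 79870 CPM in control mice 2, 4 and 8, again without overlap. Its log2 fold change of -0.51 (SE 0.20) did not pass (adjusted p = 0.138, edgeR). DESeq2 gave -0.58 with adjusted p = 0.0333, under the fold of 1.5 and so not called, and over the settings with this grouping and all mice the adjusted p was 0.0333 to 0.394. let-7a-5p (log2 fold change -0.28), let-7f-5p (-0.27), let-7d-5p (-0.24), miR-98-5p (-0.23), let-7g-5p (-0.15), let-7e-5p (-0.08) and let-7j (0.03) had overlapping groups and edgeR adjusted p values of 0.263 to 0.883. Groups did not overlap for 2 members in the lower direction, beside 16.1% of all miRNAs tested, and for 1 member in the higher direction, beside 22.5%.

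That member was let-7i-5p. Its level was 22518, 21193 and 22597 CPM in DSS mice 1, 7 and 9 and 20602, 19370 and 20416 CPM in control mice 2, 4 and 8. The DSS colons were all slightly above the controls, but the log2 fold change of 0.13 (SE 0.13) did not pass (adjusted p = 0.507, edgeR). Below 0 were 8 of 10 members, beside 47.6% of all miRNAs. The median log2 fold change was -0.24 over the members and 0.04 over all miRNAs tested. Scaling by total counts alone moved the median of all miRNAs to 0.26 and that of the members to -0.01 and left 5 of 10 below 0, so that the sign of the small changes depended on the scaling.

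The proportions of the members do not depend on the scaling. In the colon, let-7b-5p made up 11.1% to 12.3% of the family's counts in DSS mice and 14.4% to 16.0% in controls, a difference of -3.30 percentage points. let-7c-5p made up 24.8% to 27.1% and 28.0% to 30.2%, a difference of -3.15 points. let-7i-5p took the opposite course, with 10.7% to 13.7% in DSS mice and 7.72% to 9.67% in controls, a difference of 3.35 points, and let-7e-5p was at 1.80% to 2.17% against 1.64% to 1.65%. These 4 members had no overlap between the groups (p = 0.1 in each two-sided exact permutation test, as small as 3 mice against 3 can reach). Adjusted over the 10 members, each of these permutation p values was 0.25. Shares within a library are tied, since a lower share of some members raises that of others. A rate over all miRNAs was not taken for them. The shares of the other 6 members overlapped. Summed over the chain of 1-base neighbours, which is insensitive to reads moving between them, the means were 148110 ± 19008 CPM (DSS) and 198269 ± 24231 CPM (control, SD, n = 3 each), lower by 25.3%, whereas the sum of let-7i-5p and let-7j was higher by 9.41%. These CPM sums do depend on the scaling. As a percent of total counts, the chain was lower by 13.9%, with means of 15.8 ± 0.739% (DSS) and 18.4 ± 1.30% (control, SD, n = 3 each), and let-7i-5p with let-7j was higher by 27.5%, with 2.52 ± 0.458% and 1.97 ± 0.126%. In both sums the groups did not overlap on either scale.

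Markers of other cells moved in the same colons. All 8 of 8 gut epithelium miRNAs were lower in DSS mice, 4 of them with an adjusted p of at most 0.05, and their summed level was 52900.3 to 121852 CPM in DSS mice and 155682 to 195332 CPM in controls. The 2 of 2 granulocyte and monocyte miRNAs rose, with a summed level of 63.9 to 124 CPM in DSS mice and 23.1 to 24.4 CPM in controls. Both arms of miR-126a were higher in every DSS colon, and neither passed (log2 fold changes 0.41 and 0.46). Their sum was 6861 to 7340 CPM in DSS mice and 5144 to 5558 CPM in controls. The 2 leukocyte miRNAs were above 0 without passing, and their sum overlapped at 305 to 998 CPM and 229 to 355 CPM. All 4 of 4 muscle miRNAs were below 0 without passing (log2 fold changes -1.52 to -0.02), and each overlapped between groups. Their sum, most of which was miR-143-3p, overlapped too. The 2 lymphocyte miRNAs were above 0 without passing, with overlapping sums of 35.2 to 144 CPM in DSS mice and 54.2 to 86.1 CPM in controls. The red blood cell entries overlapped in sum, at 3232 to 4730 CPM and 3127 to 4288 CPM, and none passed. No marker was at 0 in colon. The part of these cells in the let-7 values was not tested, and in bulk tissue fewer cells of a type and less RNA per cell cannot be told apart.

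**Figure D2:**
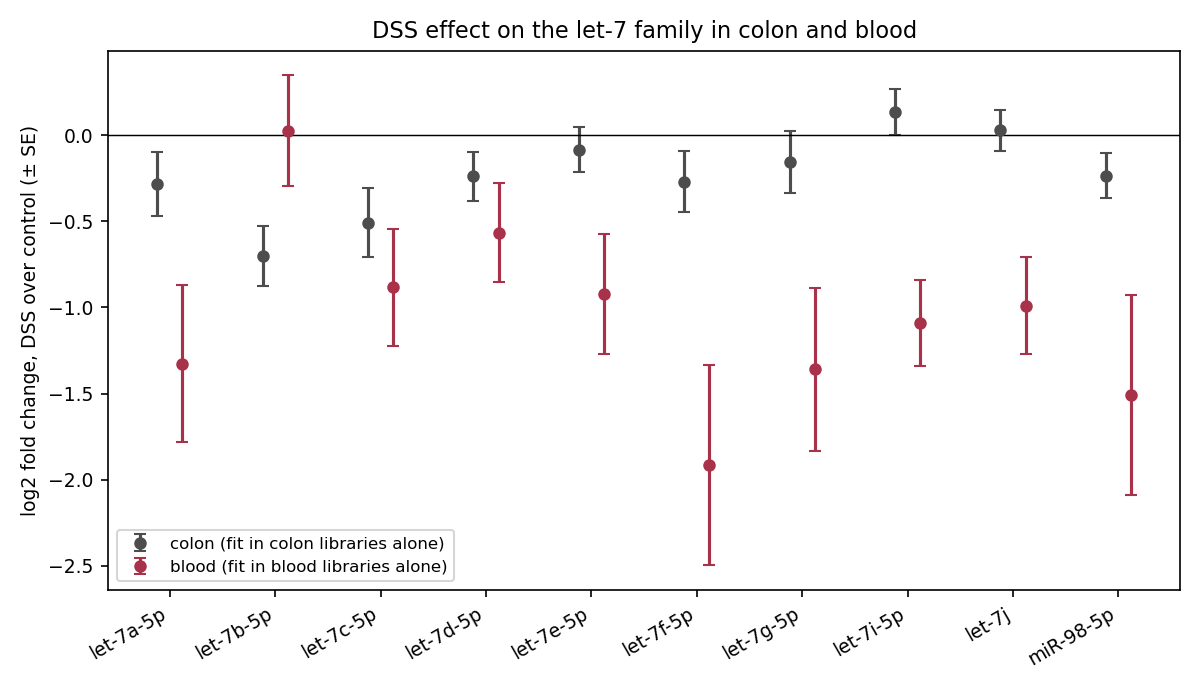
Log2 fold change of each let-7 member in DSS over control mice with its standard error, from edgeR fits in colon alone (grey) and in blood alone (red). In colon the values run from -0.70 (let-7b-5p) to 0.13 (let-7i-5p), and in blood from -1.92 (let-7f-5p) to 0.03 (let-7b-5p).

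In blood no member was called SDE by edgeR, and neither was any of the 484 miRNAs tested (0%). Without adjustment, 8 of 10 members had a p under 0.05 with a lower level in DSS mice, beside 8.68% of all miRNAs, and DESeq2 called 2 members lower, let-7i-5p and let-7f-5p, beside 2.44%. With no filter on low counts edgeR called 6 members lower, beside 1.61%. The log2 fold change was below 0 for 9 of 10 members, beside 55% of all miRNAs, with a median of -1.04 over the members and -0.05 over all miRNAs. The members share seeds and loci, can share reads, and cannot be counted as independent observations.

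let-7i-5p, the main member in blood, had the smallest p of the family. Its level was 17301, 18248 and 14696 CPM in DSS mice 1, 7 and 9 and 44934, 31971 and 30185 CPM in control mice 2, 4 and 8. On this TMM scale the lowest control stood well above the highest DSS mouse. As a percent of total counts the gap was narrow, with let-7i-5p and let-7j together at 1.56% to 2.35% in DSS mice and 2.43% to 4.10% in controls. For let-7i-5p edgeR gave a log2 fold change of -1.09 (SE 0.25, adjusted p = 0.165), or -0.84 (adjusted p = 0.521) without mouse 2. The adjusted p was 0.0100 by DESeq2 and 0.0100 to 0.552 over the settings with this grouping and all mice. let-7j, its 1-base neighbour, was also lower in each DSS mouse, at 418, 640 and 501 CPM in DSS mice 1, 7 and 9 against 1277, 1106 and 712 CPM in control mice 2, 4 and 8, with a log2 fold change of -0.99 (adjusted p = 0.246, edgeR).

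let-7f-5p had the largest difference. Its level was 1874, 1229 and 996 CPM in DSS mice 1, 7 and 9 and 9987, 3731 and 1748 CPM in control mice 2, 4 and 8. The groups overlapped, since DSS mouse 1 was above control mouse 8. edgeR gave -1.92 on the log2 scale (SE 0.58, adjusted p = 0.277), and -0.96 without mouse 2. The adjusted p was 0.0337 by DESeq2 and 2.2e-07 to 0.629 over the settings with this grouping and all mice. miR-98-5p, which shares the Huwe1 intron with a let-7f gene, was at 40.6, 22.8 and 21.5 CPM in DSS mice and 162, 46.7 and 33.1 CPM in controls, in the same order of mice, with a log2 fold change of -1.51 that became -0.45 without mouse 2. let-7g-5p was at 1799, 886 and 805 CPM against 4611, 2960 and 1375 CPM, with -1.36 overall and -0.86 without mouse 2. These 3 members had overlapping groups.

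Of the remaining members below 0, let-7a-5p was at 3360, 4232 and 3836 CPM in DSS mice 1, 7 and 9 and 16970 (mouse 2), 7399 (mouse 4) and 4281 CPM (mouse 8) in controls. The gap between the groups was narrow, and the log2 fold change of -1.33 (adjusted p = 0.360, edgeR) became -0.57 without mouse 2. let-7c-5p was nearly constant in the DSS mice, at 2810 to 2888 CPM, and ranged from 3130 to 8100 CPM in controls (log2 fold change -0.88). let-7e-5p was at 23.2 to 33.8 CPM in DSS mice and 35.8 to 84.4 CPM in controls (-0.92). let-7d-5p overlapped between the groups (-0.57). Without mouse 2 these values became -0.38 for let-7c-5p, -0.42 for let-7e-5p and -0.24 for let-7d-5p. Groups did not overlap for 5 members in the lower direction, let-7a-5p, let-7c-5p, let-7e-5p, let-7i-5p and let-7j, beside 9.92% of all miRNAs. This count belongs to the TMM scale. As a part of total counts let-7c-5p overlapped, with 111654 of 29939206 in DSS mouse 1 and 78102 of 23667262 in control mouse 4. So did let-7e-5p, with 733 of 21127134 in DSS mouse 9 and 774 of 23667262 in control mouse 4.

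let-7b-5p, the member called in colon, was the exception in blood. Its level was 3800, 6425 and 6211 CPM in DSS mice 1, 7 and 9 and 6734, 3419 and 5975 CPM in control mice 2, 4 and 8. The groups lay over each other, and the log2 fold change was 0.03 (SE 0.32, adjusted p = 0.984, edgeR). As a share of the family's blood counts it was 10.4% to 17.1% in DSS mice and 5.35% to 11.2% in controls, with overlap. Only the share of let-7d-5p had no overlap, with 14.3% to 17.7% in DSS mice and 11.1% to 13.6% in controls (exact permutation test, two-sided p = 0.1). The share of let-7i-5p was 40.4% to 47.2% in DSS mice and 42.8% to 56.5% in controls, also with overlap. Summed over the family, DSS mice had 37996 ± 2572 CPM and controls 74080 ± 27246 CPM (SD, n = 3 each), without overlap on this scale.

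Control mouse 2 had the largest family level in blood (104957 CPM) and was the highest of the 6 mice for each member. Without it, 9 of 10 members remained below 0, with a median of -0.51 and 3 members at an unadjusted p under 0.05, beside 4.11% of all miRNAs for lower. In the same blood libraries the platelet and endothelium markers, both arms of miR-126a (1 of 2 tested, with a log2 fold change of -1.45), summed to 13.4 to 16.3 CPM in DSS mice and 31.0 to 57.3 CPM in controls, and the liver marker miR-122-5p was at 6.37 to 10.6 CPM and 15.9 to 191 CPM. The 5 red blood cell entries summed to 579912 to 864794 CPM in DSS mice and 636782 to 1142910 CPM in controls and overlapped, as did the 2 leukocyte and the 2 lymphocyte markers. Among the red blood cell entries, most of whose sum was miR-486a-5p and miR-486b-5p, miR-451a was lower in every DSS mouse, at 5916 to 9890 CPM against 10006 to 12844 CPM (log2 fold change -0.56, not passing). The arms of miR-223, the granulocyte and monocyte markers, went opposite ways and neither passed. miR-223-3p was at 20.3 to 38.3 CPM in DSS mice and 9.53 to 12.03 CPM in controls (1.31) without overlap, and miR-223-5p at 1.80 to 5.26 CPM and 4.48 to 7.23 CPM (-0.80) with overlap. Below 0 were all 8 of 8 gut epithelium markers, none of which passed. Their sum was 943 to 1110 CPM in DSS mice and 1112 to 1310 CPM in controls, and the groups were apart for miR-194-5p (-0.78) and miR-215-5p (-0.85). No listed marker was at 0. The part of these cells in the blood values was not tested.

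The disease state field of the labels splits the mice differently, and some let-7 proportions in blood followed it. let-7g-5p made up 4.39% to 4.91% of the family in the blood of mice 1, 2 and 4 and 2.16% to 2.57% in mice 7, 8 and 9. let-7f-5p made up 5.11% to 9.52% and 2.74% to 3.27%, let-7b-5p 5.35% to 10.4% and 11.2% to 17.1%, and miR-98-5p 0.0732% to 0.154% and 0.0557% to 0.0620%. None of these 4 overlapped (exact permutation test, two-sided p = 0.1 each), against 1 member under the grouping used here. In colon 1 member, let-7a-5p, was without overlap under the label grouping, against 4. With that grouping the blood log2 fold changes were 1.61 for let-7g-5p, 1.97 for let-7f-5p and 1.69 for miR-98-5p, higher in the mice labelled with colitis. These were the 3 members with an unadjusted p under 0.05, beside 2.48% of all miRNAs for higher, and no miRNA passed the adjustment in edgeR (14 of 484 at an unadjusted p under 0.05). In colon the label grouping called 0 of 542 miRNAs in edgeR (20 at an unadjusted p under 0.05), against 55 with the grouping used here. What mice 1, 2 and 4 share beyond the label is not given in the sources used here.

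**Figure D3:**
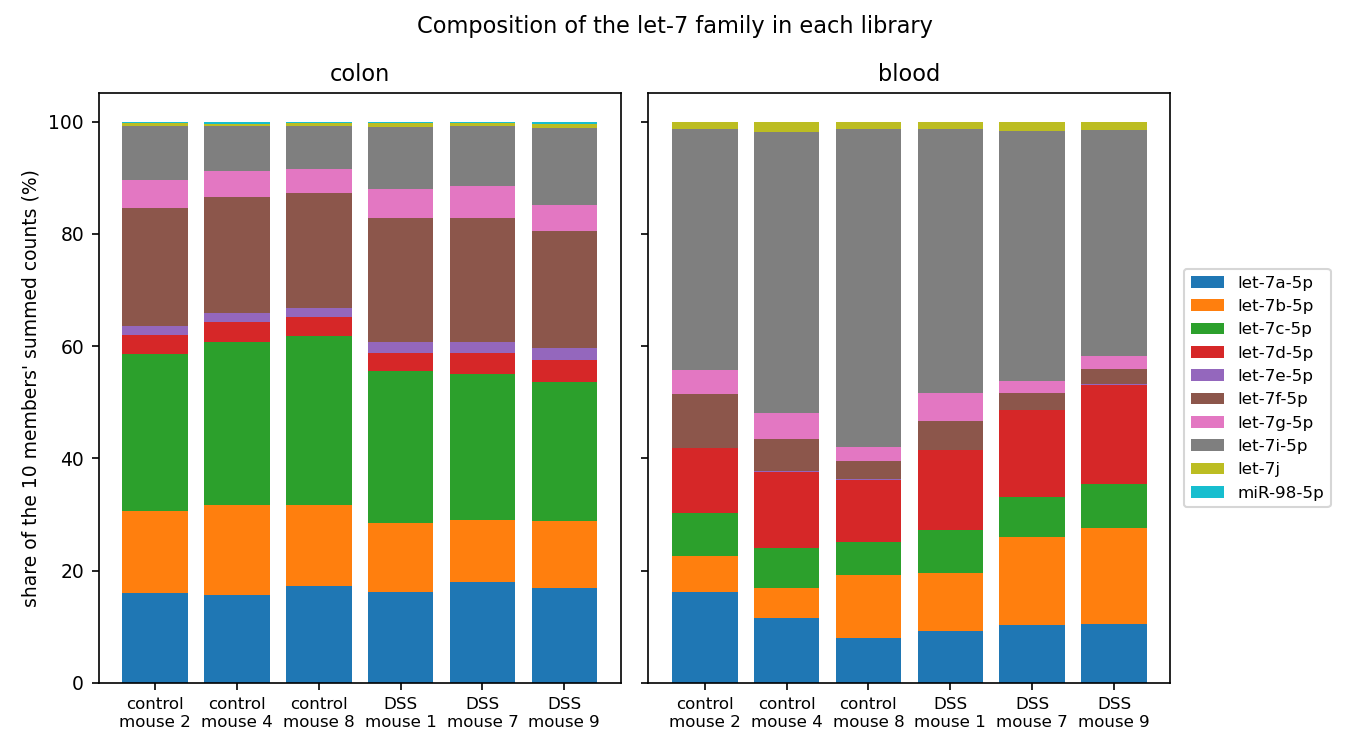
Share of each let-7 member in the summed counts of the 10 members, in percent, stacked for each library with colon left and blood right, controls before DSS mice. let-7c-5p, let-7f-5p and let-7a-5p fill most of each colon bar, let-7i-5p fills 40.4% to 56.5% of each blood bar, and the grey let-7i-5p segment in colon is taller in the DSS mice (10.7% to 13.7%) than in the controls (7.72% to 9.67%).

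Whether DSS acted differently in blood and colon was tested as an interaction in a fit of all 12 libraries. It passed for 0 of 10 members and 0 of 680 miRNAs (0%) in edgeR. At an unadjusted p under 0.05 stood 2 members, beside 13.8% of all miRNAs. For let-7b-5p the effect in blood was higher than in colon by 1.00 on the log2 scale (SE 0.43, adjusted p = 0.317, edgeR), and for let-7i-5p it was lower, at -0.86 (SE 0.36, adjusted p = 0.310). The value of let-7b-5p became 0.66 without mouse 4, 0.64 with RLE factors, 0.65 with total counts alone and 0.43 with the red blood cell miRNAs left out. With the red blood cell miRNAs left out let-7i-5p passed, at -1.52 (adjusted p = 0.0398, edgeR), and with no filter on low counts let-7f-5p did, at -1.41 (adjusted p = 0.0445, edgeR). The share of all miRNAs that passed in these settings is not given here, so these passes cannot be read as particular to let-7. let-7i-5p was also the member whose DSS mice lay all above the controls in colon and all below them in blood.

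Colon and blood themselves differed far more than DSS and control mice. Across all 12 libraries, with 1 scaling over both tissues, 9 of 10 members passed an adjusted p of at most 0.05 with a fold over 1.5, as did 88.7% of the 680 miRNAs tested. Lower in blood were 7 members and higher were 2, beside 51% and 37.6% of all miRNAs. let-7e-5p had the largest difference, with 2701 to 3386 CPM in colon and 38.3 to 92.3 CPM in blood, a log2 fold change of -5.86 (SE 0.24, adjusted p = 6.3e-12, edgeR). let-7f-5p followed with 26131 to 41743 CPM in colon and 1128 to 10929 CPM in blood (-3.35), let-7c-5p with 30914 to 61766 CPM and 3196 to 8865 CPM (-3.19) and miR-98-5p with 471 to 665 CPM and 24.4 to 177 CPM (-3.17). let-7a-5p (-1.83), let-7g-5p (-1.72) and let-7b-5p (-1.63) were lower by less. No colon and blood ranges overlapped for these 7 members, beside 44.9% of all miRNAs.

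let-7i-5p was higher in blood, at 16643 to 49172 CPM against 15193 to 17091 CPM in colon (log2 fold change 0.97, SE 0.18, adjusted p = 0.000102, edgeR), with ranges that overlapped. let-7d-5p was higher without overlap (32.2% of all miRNAs), at 7289 to 13240 CPM against 4918 to 6878 CPM (0.70, SE 0.17, adjusted p = 0.00128, edgeR). let-7j did not pass (0.17, adjusted p = 0.369). The size of these differences depended on the scaling, since the median of all miRNAs was -0.86 here and -1.59 with total counts alone, where let-7d-5p was at -0.05 (adjusted p = 0.814, edgeR) and let-7i-5p at 0.22 (adjusted p = 0.278), neither called, while let-7j was called lower in blood (-0.59, adjusted p = 0.00507). With the red blood cell miRNAs left out, let-7d-5p did not pass either (0.27, adjusted p = 0.205, edgeR), and let-7i-5p, at 0.53 with adjusted p = 0.0121, was under the fold of 1.5. The 7 members lower in blood were called in both settings. The proportions do not share that limit. From colon to blood the share of let-7i-5p went from 7.72% to 13.7% up to 40.4% to 56.5%, and that of let-7d-5p from 3.29% to 3.94% up to 11.1% to 17.7%. The share of let-7c-5p went from 24.8% to 30.2% down to 5.86% to 7.76%, and that of let-7e-5p from 1.64% to 2.17% down to 0.0633% to 0.0931%. Each of these held in 6 of 6 mice without overlap. The exact permutation test gave a two-sided p = 0.00216, the smallest possible for 6 unpaired libraries against 6. It took the libraries as independent and did not use the pairing, although the same mice gave both tissues, so this p is not that of a paired test.

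**Figure D4:**
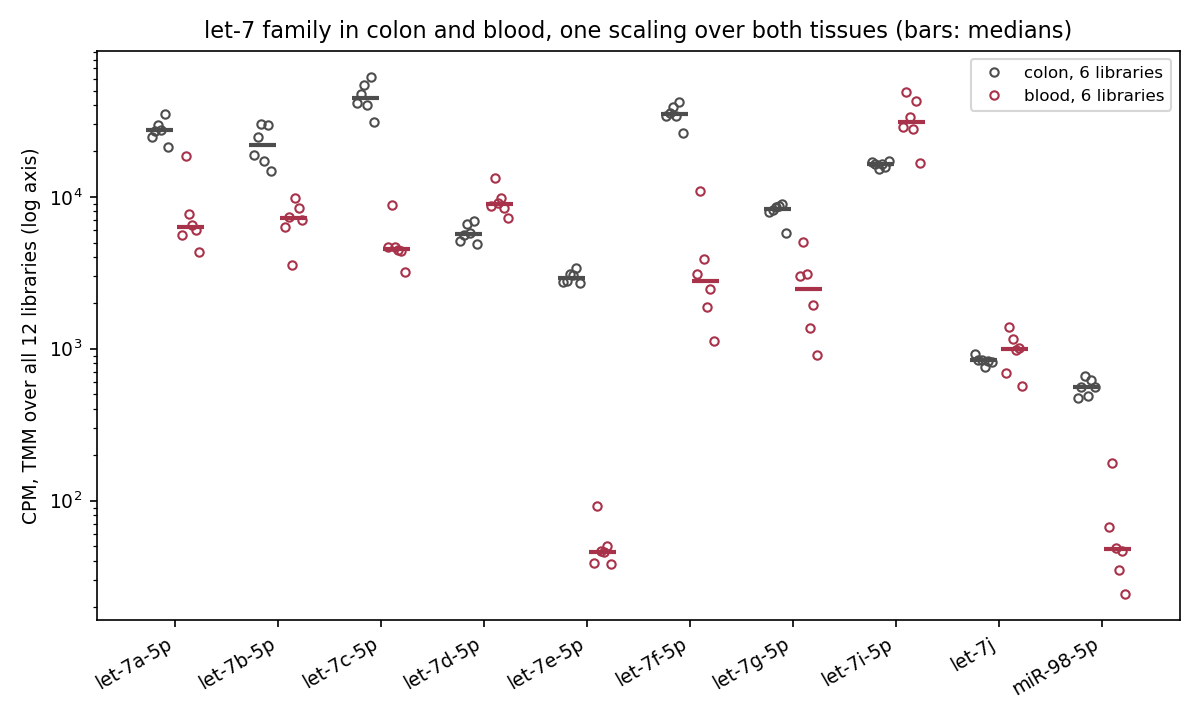
Level of each let-7 member in the 6 colon libraries (grey) and the 6 blood libraries (red), in CPM on a log axis after 1 TMM scaling over both tissues, with bars at the medians. let-7e-5p falls from 2701 to 3386 CPM in colon to 38.3 to 92.3 CPM in blood, while let-7d-5p and let-7i-5p have the higher median in blood.

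let-7j stood at 4.62% to 5.55% of the let-7i-5p count in the colon libraries and 2.36% to 3.51% in the blood libraries, without overlap between tissues. The entries differ within the seed, by G8U, and at the 3′ end. Whether let-7j reads come from its own locus or from let-7i molecules was not tested.

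The opposite arms were read for what the precursors gave on the other strand. Of the 12 arms listed, 9 were tested in colon and 6 in blood, and none passed in either tissue. let-7a-1-3p and let-7c-2-3p have an identical sequence and nearly identical counts, so they were counted as a single observation. In colon 7 of 8 then had a log2 fold change above 0, with a median of 0.34, where 8 of 10 members and 47.6% of all miRNAs were below 0. Of these arms, let-7b-3p, let-7c-1-3p, let-7e-3p, let-7f-1-3p, let-7f-2-3p and let-7i-3p had low levels, at 0.338 to 8.96 CPM. In blood 3 of 5 arms were above 0, with a median of 0.17, where 55% of all miRNAs were below 0, and let-7d-3p was at -0.40. The 2 arms with most to show are given with their seeds in capitals.
mmu-let-7d-3p: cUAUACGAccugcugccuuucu
mmu-let-7i-3p: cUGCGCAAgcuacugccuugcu
let-7d-3p was the most abundant opposite arm, and its tissue difference was larger than that of let-7d-5p. It was at 110 to 280 CPM in colon and 946 to 2048 CPM in blood with 1 scaling over both tissues, a log2 fold change of 3.08 (SE 0.26, adjusted p = 2.1e-08, edgeR). Per 100 counts of let-7d-5p there were 1.60 to 4.86 counts of let-7d-3p in colon and 10.9 to 23.8 in blood.

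The ratio of 5p to 3p was compared for the 6 precursors whose arms have unambiguous names, as log2 of counts plus 1. In blood the ratio of let-7i was lower in DSS mice than in controls, with means of 11.44 ± 0.61 and 13.16 ± 0.72 (SD, n = 3 each). For miR-98 the means were 7.20 ± 0.82 and 9.47 ± 1.45, but the 3p arm had only 0 to 6 counts. In colon the ratio of let-7b was lower, with 11.75 ± 0.43 and 12.95 ± 0.43. In these 3 cases the groups did not overlap (exact permutation test, two-sided p = 0.1 each, the smallest possible). That is 1 of 6 precursors in colon and 2 of 6 in blood, beside 5.28% of the 398 miRNAs with both arms counted in colon and 6.02% of the 332 in blood for a lower ratio. For let-7i the 3p arm had 65 to 275 counts in blood and for let-7b it had 62 to 159 in colon. let-7i-3p in blood had a log2 fold change of 0.59 and let-7b-3p in colon one of 0.54, neither of which passed. The ratios of the other 9 combinations overlapped between the groups.

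The miR-99, miR-100 and miR-125 arms are encoded beside let-7a-2, let-7c-1 and let-7e, and none passed in either tissue. Their difference from the let-7 members was not tested. Of the 11 arms listed, 9 were tested in colon and all had a log2 fold change above 0, between 0.02 and 0.53. Examples are miR-99a-5p at 5406 to 7423 CPM (0.20), miR-100-5p at 4700 to 7560 CPM (0.34), miR-125a-5p at 5645 to 8865 CPM (0.02) and miR-125b-5p at 5203 to 7320 CPM (0.28). In blood 7 were tested, between -0.27 and 0.02, where miR-99a-5p was at 232 to 525 CPM and miR-99b-5p at 99.8 to 267 CPM. Their summed level was 19915 to 25618 CPM in colon and 837 to 1790 CPM in blood. A lower level in blood was also seen for let-7c-5p, let-7e-5p and most other members, and 51% of the 680 miRNAs tested were called lower there.

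The miRNAs most like the family were found by Pearson's r between log2 CPM and the mean log2 CPM of the members over the 6 libraries of a tissue, as a description. In colon, among 250 candidates, they were miR-1843a-5p (r = 0.99), miR-1843b-5p (r = 0.98) and miR-103-3p (r = 0.97). In blood, among 167 candidates, they were miR-16-5p (r = 0.96), miR-30a-5p (r = 0.94) and miR-374b-5p (r = 0.93). These points share library, depth and scaling. The family's mean contains each member, which raises the r of the members themselves. Of these, let-7c-5p was closest to that mean in both tissues (r = 0.99 in each). let-7i-5p ran against it in colon (r = -0.78) and with it in blood (r = 0.92), and let-7b-5p had r = 0.94 in colon and r = 0.11 in blood.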

How the data were processed

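Small RNA libraries of colon and blood from 6 mice were analysed (12 libraries, 3 mice per group). The authors trimmed reads with Flexbar, collapsed them with fastx-toolkit and deposited raw counts per mature miRNA of miRBase version 22, made with the miRDeep2 quantifier, which can assign a read to near-identical members. A normalized signal per tissue, deposited as the count over a DESeq2 size factor, was used in 1 alternative. All per-sample columns were used.

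Counts were tested with edgeR (4.0.16, R 4.3.3) in each tissue alone: filterByExpr, TMM factors, glmQLFit and glmQLFTest without covariates, Benjamini-Hochberg adjustment over all miRNAs tested. The standard error is the size of the log2 fold change over the square root of F. Tissues and the interaction were tested in 1 fit over all 12 libraries with 4 group means. Shares and arm ratios (pseudocount 1) were compared by exact permutation, two-sided. Replicates are separate mice. Colon and blood libraries with the same number come from the same mouse. Deviations from the group means correlated between them with r of -0.27 to 0.07 over 680 miRNAs, and the mouse as a block was an alternative. Other alternatives were DESeq2 (1.42.0, Wald test), limma (3.58.1) on log2(normalized signal + 1), other scalings and filters, each mouse left out, and the grouping of the disease state label. Scaling without the let-7 family was added after seeing the data. The tests were tested on simulated counts. Depths and precision cover counting error only where libraries hold no molecular identifiers, and none are named in the sources used here.

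Members, other arms, neighbouring miRNAs and markers, and the miRNAs most like the family (3 per tissue, mean CPM over 10), were named by rule. Members and lists were chosen with earlier results of these data known. The miR-486 entries were named, and counted once, after their values were seen. The total RNA libraries of the study were not analysed here. Sequences and positions come from RefSeq and GENCODE annotation of GRCm38. Tables and figures were made in Python (3.11.15).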

Additional observations from a re-analysis of the deposited data

Results flagged for a closer look

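For let-7i-5p the 3 DSS mice lay above the 3 control mice in colon and below them in blood. The log2 fold change was 0.13 in colon and -1.09 in blood, and the interaction over all 12 libraries was -0.86 with adjusted p = 0.310 (edgeR's quasi-likelihood test) and did not pass. It was -1.31 with RLE factors (adjusted p = 0.0513) and -1.21 with total counts alone (0.204), and with the red blood cell miRNAs left out it was -1.52 and passed (adjusted p = 0.0398, edgeR), where the share of all miRNAs passing is not given here. With 1 mouse left out it ran from -0.999 to -0.611, the smallest being that without mouse 9 (adjusted p = 0.460, edgeR), and passed in none of these fits.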

How the results depend on the processing

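The number of members called in colon was 1 and became 0 with RLE factors, upper-quartile factors, total counts alone, limma on the normalized signal, all 12 libraries in 1 fit, the let-7 family left out of the scaling (chosen after seeing the data), and the grouping of the disease state label. The log2 fold change of let-7b-5p ran from -0.83 to -0.49 over the settings other than that grouping. With 1 mouse left out, 0 to 1 members were called in colon, 0 in blood, 8 to 9 between blood and colon and 0 for the interaction. The number of members called in blood was 0 and became 2 with DESeq2 and 6 with no filter on low counts, and that for the interaction became 1 with the red blood cell miRNAs left out (let-7i-5p) and 1 with no filter (let-7f-5p). For these interaction calls the share of all miRNAs called is not given here. Between blood and colon 9 members were called, 8 with total counts alone or no filter and 7 with the red blood cell miRNAs left out. The mouse as replicate block (a paired fit) gave 9 members called between blood and colon and 0 for the interaction, and changed no call. The number of members whose share had no overlap was 4 to 7 in colon and 1 to 5 in blood with 1 mouse left out.

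Some small values changed sign. let-7j in colon was at -0.042 with DESeq2, -0.035 with RLE factors, -0.090 with upper-quartile factors, -0.016 with at least 10 counts in every library, -0.047 with limma, -0.046 without the family in the scaling and -0.015 with all 12 libraries, and at -0.070 to 0.10 with 1 mouse left out. With total counts alone, colon values were 0.14 for let-7e-5p, 0.040 for let-7g-5p and 0.0042 for miR-98-5p. let-7b-5p in blood was at -0.0064 with at least 10 counts in every library and at -0.15 to 0.29 with 1 mouse left out. Between blood and colon, let-7d-5p was at -0.047 with total counts alone, and let-7j at -0.59 with total counts alone, -0.26 with the red blood cell miRNAs left out, -0.014 with no filter and -3.5e-05 to 0.23 with 1 mouse left out.

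The grouping of the disease state label turned the sign of 5 of 10 members in colon and 10 of 10 in blood. In colon it gave 0.25 for let-7b-5p, 0.10 for let-7c-5p, 0.081 for let-7f-5p, 0.062 for let-7g-5p and -0.039 for let-7i-5p. In blood it gave 1.17 for let-7a-5p, -0.42 for let-7b-5p, 0.80 for let-7c-5p, 0.47 for let-7d-5p, 0.61 for let-7e-5p, 1.97 for let-7f-5p, 1.61 for let-7g-5p, 0.58 for let-7i-5p, 0.60 for let-7j and 1.69 for miR-98-5p. The interaction became -0.83 for let-7b-5p and 0.37 for let-7i-5p, and 1 member in colon and 4 in blood had shares without overlap. The lowest count of any member was 466, for miR-98-5p in 1 blood library.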
